A study of Saccharomyces cerevisiae with 8 samples.

Results

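Budding yeast (Saccharomyces cerevisiae) can make every amino acid it needs, and the 59 genes described here cover much of that synthesis outside the sulfur amino acids, together with GCN4, the gene of their shared activator. They were taken by gene symbol from a deposited table of 7127 features. LEU2 and HIS3 were left out because they are deleted, in whole or in part, in the strain. Besides GCN4 there were 8 genes for arginine, 6 for histidine, 8 for lysine, 3 for leucine, 7 for isoleucine and valine, 7 for the shared aromatic steps, 5 for tryptophan, 5 for threonine, 4 for serine, 3 for proline and 2 for asparagine. All 59 were above 0 in every library, and all 59 passed the filter of a mean of at least 1 FPKM (fragments scaled by transcript length and by the mapped fragments of the library) that left 6439 genes to test.

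Poly(A) RNA was sequenced from BY4741, a haploid laboratory strain, and from BY4741 lacking TRM2, which encodes the enzyme that makes 5-methyluridine in tRNA. The 4 groups held 2 biological duplicates each: wild type without hygromycin B, wild type with 50 µg/mL of it, and the knockout without and with the same dose. Hygromycin B is an aminoglycoside that stalls the translocation step of the ribosome, and untreated below means without it. All cultures grew in YPD, a rich medium that supplies amino acids, so that synthesis was not required by the medium. Per the labels' protocols the knockout cultures also held 200 µg/mL Geneticin, another aminoglycoside, and wild type is not said to have had it, so effects of the deletion and of Geneticin cannot be told apart. Cultures with hygromycin B were harvested at an OD600 of 0.4 and the others at 0.6 to 0.8, so drug and cell density cannot be told apart either. Whether the knockout was 1 clone is not said.

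TRM2 was at 116 to 158 normalised FPKM in the 4 wild-type libraries and was listed at 0 in the 4 knockout libraries, as the labels have it. LEU2, URA3 and MET17 were listed at 0 throughout. HIS3, which this strain lacks only in part, was at 34.4 to 54.0. MFA1 and MFA2, the genes of the pheromone that mating type a cells make, were listed at 0 in all 8 libraries too, so a listed 0 here does not by itself show that a gene is lacking or silent. STE2, the receptor of mating type a cells, was at 233 to 708 and STE3, the receptor of the other mating type, at 2.36 to 5.76. The FPKM of a library summed to 1171274 to 1654849, and features with ribosomal DNA names took 2.008% to 19.27% of that sum. Read depth is unknown. Values below are FPKM divided by a median-ratio factor per library. Differences are log2(normalised FPKM + 1) with their standard error (SE) from limma, which understates changes of low genes, and a gene rose or fell where the adjusted p was under 0.05. Every value is relative to the other RNA of its library, so less of an mRNA per cell and more of all others cannot be told apart.

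In the general amino acid control, uncharged tRNA activates the kinase Gcn2, which phosphorylates the initiation factor eIF2. Slower initiation lets ribosomes pass the short upstream reading frames of the GCN4 mRNA and translate Gcn4, a bZIP protein that binds and activates genes of most amino acid pathways. GCN4 mRNA is therefore no direct measure of Gcn4 protein. Several pathways also have an activator of their own, such as Leu3 for branched-chain synthesis, Lys14 for lysine and Aro80 for aromatic amino acid breakdown, and the first enzyme of a pathway is often inhibited by its end product.

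The letters TGACTC, the core of the site that Gcn4 binds and that Bas1, an activator of purine and histidine genes, shares, were searched on both strands in the 400 bases before each start codon of the RefSeq R64 genome. They were found before 40 of the 59 genes (67.8%) and before 620 of all 6001 protein-coding genes (10.3%). The longer TGACTCA, which contains the core, was found before 49.2% of the 59 and 3.38% of all. CCGG, any 2 bases and CCGG again, a palindrome of the kind Leu3 binds, preceded LEU1, ILV5 and BAT1 (5.08% of the 59, beside 0.183% of all). A match is a string of letters and was not tested as a binding site. The windows shown, chosen after the values were seen, belong to HIS4, HIS5, ARG4, LEU1 and LEU4, which were lower in the untreated knockout, to CPA1 and ILV6, which changed with the drug in wild type, and to BAT1, which like LEU1 holds both motifs. They are written in the direction of the gene with the motif in capitals. HIS4 and HIS5 held 3 matches of the core each, of which 1 is shown. Positions are those of RefSeq R64, since the authors' build is not given in the sources used here.
HIS4 (chrIII:68515-68544, minus strand): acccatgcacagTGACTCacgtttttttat
HIS5 (chrIX:142714-142743, plus strand): tcttggatctgtTGACTCacttcaattgat
ARG4 (chrVIII:141564-141593, minus strand): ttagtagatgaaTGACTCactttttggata
CPA1 (chrXV:882592-882621, plus strand): cttttcttttctTGACTCgtcgtttctttt
ILV6 (chrIII:105681-105710, minus strand): tcaccgttatcgTGACTCactttctttcgc
LEU4 (chrXIV:426838-426867, minus strand): cttacgtgtaagTGACTCagttctttcaaa
LEU1, Gcn4 core (chrVII:478936-478965, minus strand): cattactctagaTGACTCagtttagtctga
LEU1, Leu3 type (chrVII:478850-478879, minus strand): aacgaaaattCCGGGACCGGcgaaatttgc
BAT1, Gcn4 core (chrVIII:517349-517378, plus strand): attgccttcttaTGACTCaaaattctattg
BAT1, Leu3 type (chrVIII:517375-517404, plus strand): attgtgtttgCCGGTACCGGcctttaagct
Both sites of BAT1 lie side by side, while those of LEU1 start 301 and 217 bases before the start codon. All 8 arginine genes, all 3 leucine genes and both asparagine genes had the core, against 3 of 8 lysine genes and 2 of 7 shared aromatic genes, and GCN4 itself had none.

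GCN4 mRNA was the second most abundant of the 59 genes on average and moved little. It was at 727 and 679.5 in wild type and 849 and 946 in the knockout without hygromycin B, and at 825 and 820.0 and at 779 and 745 with it. The untreated knockout libraries were the highest and the untreated wild-type ones the lowest, and neither of these groups overlapped any other. GCN4 was higher in the untreated knockout than in untreated wild type (log2 0.35 ± 0.07 SE, limma adjusted p = 0.00968) and rose in wild-type cells under hygromycin B (log2 0.23 ± 0.07 SE, limma adjusted p = 0.0235). In the knockout it was lower with the drug (log2 −0.23 ± 0.07 SE, limma adjusted p = 0.0385), a direction that turned under each other scaling, to 0.17 with FPKM as deposited, 0.07 with TPM and 0.02 with quantile normalisation. Each of these 3 calls ended without single libraries. For the first comparison these were untreated wild-type library 2 and untreated knockout library 2 (limma adjusted p = 0.0542 to 0.0588). For the second they were untreated wild-type library 2 and either treated wild-type library (limma adjusted p = 0.058 to 0.125). For the third they were either untreated wild-type library, untreated knockout library 2 and either treated knockout library (limma adjusted p = 0.0572 to 0.193). The genotypes' responses differed by log2 −0.46 ± 0.10 SE, limma adjusted p = 0.00707, a call that no single library decided, and that ended when FPKM were left as deposited or rescaled to TPM.

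The 59 genes moved in both directions in every comparison. Without hygromycin B, 14 were higher in the knockout and 16 lower, beside 23.2% and 19.8% of all tested genes, and 1 and 3 of them by at least 2-fold, beside 0.854% and 2.64%. With hygromycin B in wild type 17 rose and 37 fell, beside 40.4% and 38.4%. Of these, 7 rose and 13 fell at least 2-fold, beside 14.7% and 14.6%. With hygromycin B in the knockout 8 rose and 21 fell, beside 20.9% and 22.3%, and 1 of each at least 2-fold, beside 1.12% and 1.16%. Between treated cultures 27 were higher in the knockout and 20 lower, beside 37.3% and 39.9%, of which 7 and 6 at least 2-fold, beside 12.2% and 13.8%. The median over the 59 genes was 0.04, −0.41, −0.15 and 0.10 in these comparisons, where that of all tested genes was 0.03, 0.02, −0.02 and −0.03. Of these shares, that of the genes that fell with the drug in wild type lay farthest from its background, at 62.7% beside 38.4%.

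In both smaller sets of calls many, though not all, rested on single libraries. The 14 genes higher in the untreated knockout became 8 and 4 without untreated wild-type library 1 or 2, 6 and 5 without untreated knockout library 1 or 2, and 9 without either treated knockout library. Of them 4 passed without each library, and of the 16 lower genes 11 did. The 21 genes that fell with the drug in the knockout became 9 without untreated knockout library 2, 12 without treated knockout library 1 and 9 without treated knockout library 2, and the 8 that rose became 5 without the last. In treated wild type 33 of the 37 falls and 13 of the 17 rises passed without each library.

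**Figure D1:**
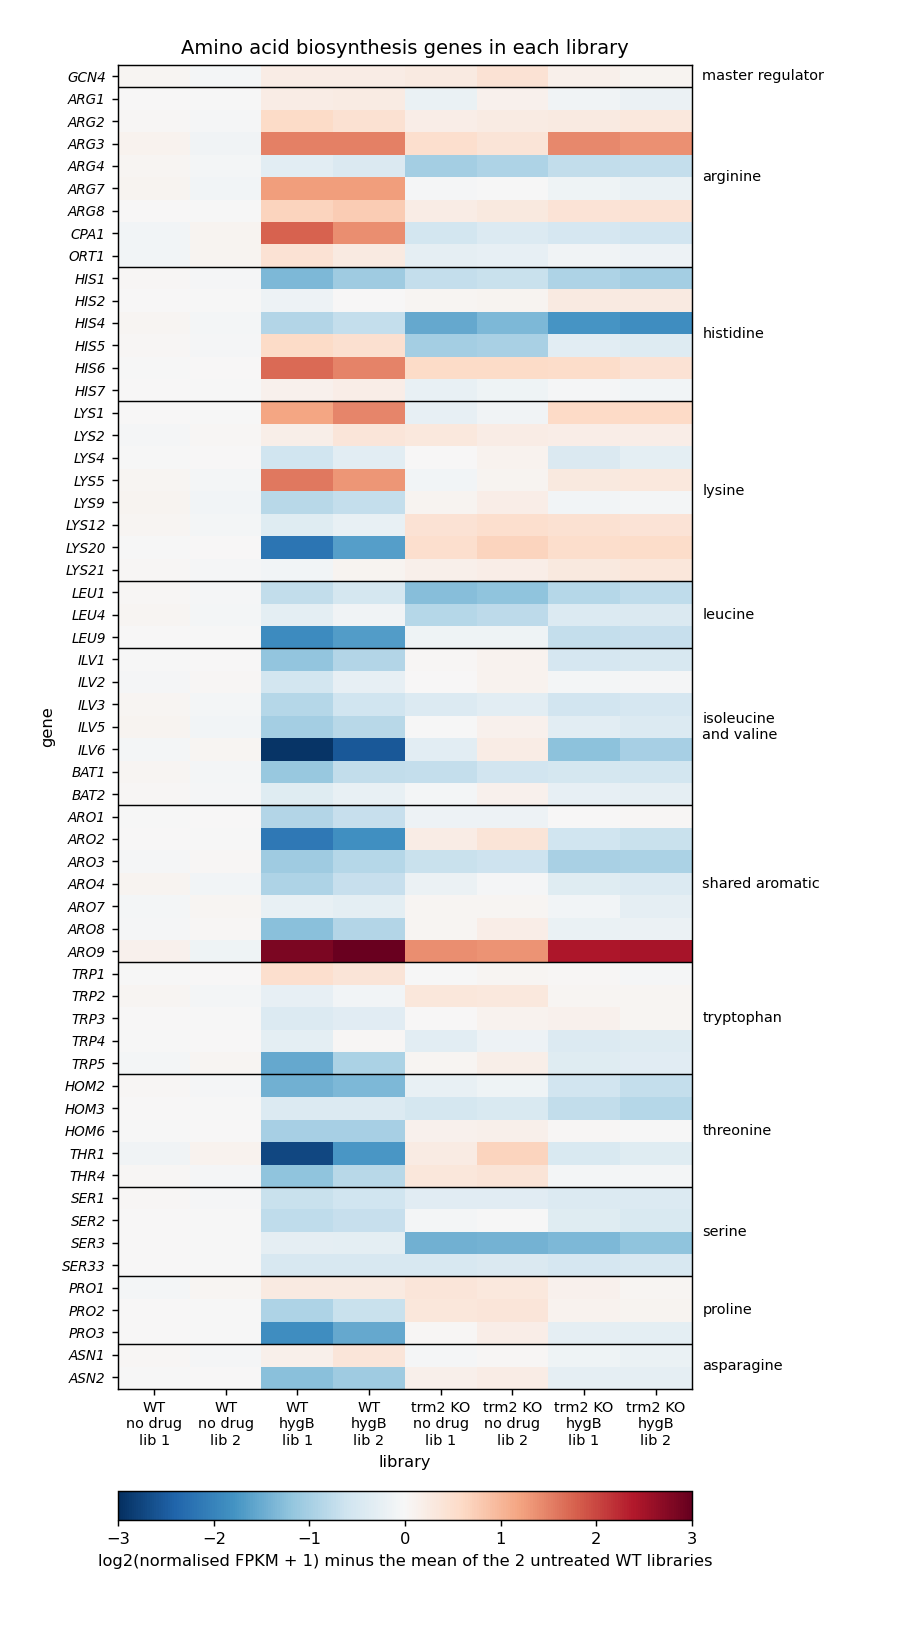
Log2(normalised FPKM + 1) of each of the 59 genes (rows, grouped by pathway) in each of the 8 libraries (columns), as the difference from the mean of the 2 untreated wild-type libraries; blue is lower and red higher. The treated wild-type libraries hold the strongest colours, among them ILV6, THR1, ARO2 and LYS20 in blue and ARO9, CPA1 and HIS6 in red, and HIS4, LEU1 and SER3 are blue in both knockout groups.

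These calls depend on how libraries are scaled. The median-ratio factors were 0.73 and 1.21 in untreated and 1.43 and 1.44 in treated wild type. In the knockout they were 0.61 and 0.95 without and 1.16 and 0.88 with the drug. FPKM as deposited thus differ in scale between duplicates too, which widens the spread within a group. Which calls ended through that spread was not tested. The median of all genes was displaced by −0.26, 0.61, 0.36, −0.53 and −0.24 with FPKM as deposited and by −0.19, 0.40, 0.26, −0.35 and −0.13 with TPM, in the order of the 4 comparisons and the interaction. With FPKM as deposited the calls that held were HIS4, LEU1 and SER3 for the untreated genotypes, and ARO9 for the drug in the knockout. For the drug in wild type they were ARG2, ARG3, ARG7, ARG8, CPA1, HIS5, HIS6, LYS1, LYS5, ARO9 and TRP1 higher and ILV6, THR1, ARO2, LYS20, LEU9 and PRO3 lower. Between treated genotypes ILV6, LYS20 and THR1 held as higher and ARG7, CPA1, HIS4, HIS5, HIS6, LYS1, LYS5 and SER3 as lower, and for the interaction ARO9, CPA1 and HIS6. Every other call of the 59 genes named here ended with FPKM as deposited. By that scaling the calls of the 59 genes, higher and lower, were 0 and 3 between untreated genotypes, beside 0.357% and 2.17% of all tested genes. They were 11 and 6 for the drug in wild type, beside 33.9% and 5.68%, and 1 and 0 in the knockout, beside 1.27% and 0.357%. Between treated genotypes they were 3 and 8, beside 5.48% and 27.6%, and for the interaction 0 and 3, beside 2.19% and 5.09%. With TPM the calls higher and lower were 1 and 12 between untreated genotypes, beside 1.83% and 14.2% of all tested genes. They were 18 and 16 for the drug in wild type, beside 47.0% and 18.3%, and 8 and 2 in the knockout, beside 21.3% and 2.22%. Between treated genotypes they were 13 and 22, beside 17.7% and 43.9%, and for the interaction 12 and 5, beside 13.5% and 21.2%. The balance of higher and lower calls over all genes thus also moved with the scaling, toward higher for the drug and toward lower for the knockout against wild type.

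Arginine is made from glutamate by way of acetylated intermediates and ornithine inside the mitochondrion and is finished in the cytosol. Of the 8 genes, 6 rose and 1 fell with hygromycin B in wild type, beside 40.4% and 38.4% of all tested genes, with a median of 0.61. In the knockout 2 rose, beside 20.9% of all, with a median of 0.10. CPA1, the small subunit of the carbamoyl phosphate synthetase for arginine, was at 210.0 and 235 (untreated) and 766 and 590.2 (treated) in wild-type libraries, and at 151 and 168 (untreated) and 157 and 149 (treated) in knockout libraries. Both treated wild-type libraries stood far above the other 6, and the treated and untreated knockout overlapped. CPA1 rose with the drug in wild type (log2 1.59 ± 0.13 SE, limma adjusted p = 4.2e-05), at −0.06 in the knockout, and it was the lowest of the 59 differences between the treated genotypes (log2 −2.13 ± 0.13 SE, limma adjusted p = 1.43e-05). In fungi the CPA1 mRNA has an upstream reading frame at which ribosomes stall with arginine.

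ARG7, the mitochondrial ornithine acetyltransferase, was at 62.5 and 56.0 in untreated and 142 and 143 in treated wild type, and at 51.3 to 59.1 in the 4 knockout libraries. It rose in wild type (log2 1.25 ± 0.06 SE, limma adjusted p = 5.48e-06) and not by the test in the knockout (−0.15). ARG3, the ornithine carbamoyltransferase and the lowest of the 59 genes on average, was at 4.29 and 3.5 without and 13 and 13 with the drug in wild type, and at 5.89 and 5.43 without and 12.3 and 11.7 with it in the knockout. It rose in both genotypes, by 1.52 in wild type and 0.96 in the knockout (limma adjusted p = 0.00138). ARG4, the argininosuccinate lyase of the last step, was at 149 and 138 in wild type and 69.8 and 75.2 in the knockout without hygromycin B, and at 116 and 106 and at 86.3 and 87.2 with it. Its 4 knockout libraries lay below its 4 wild-type libraries. ARG4 was lower in the untreated knockout (log2 −0.98 ± 0.07 SE, limma adjusted p = 0.00025) and lower by −0.34 with the drug (limma adjusted p = 0.0033). ARG2, the acetylglutamate synthase, and ARG8, the acetylornithine aminotransferase, rose with the drug in wild type by 0.51 and 0.72. ORT1, the ornithine carrier of the inner membrane, rose by 0.34 there, and ARG1, the argininosuccinate synthetase, was at 0.24 and did not pass. Between treated genotypes 7 of the 8 were lower in the knockout and none higher, beside 39.9% and 37.3% of all tested genes, with a median of −0.36. Of these calls, those of ARG1 and ARG2 ended without single libraries, ARG1 without library 2 of either treated group (limma adjusted p = 0.0592 to 0.0675) and ARG2 without treated wild-type library 1 or either treated knockout library (limma adjusted p = 0.0744 to 0.124).

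**Figure D2:**
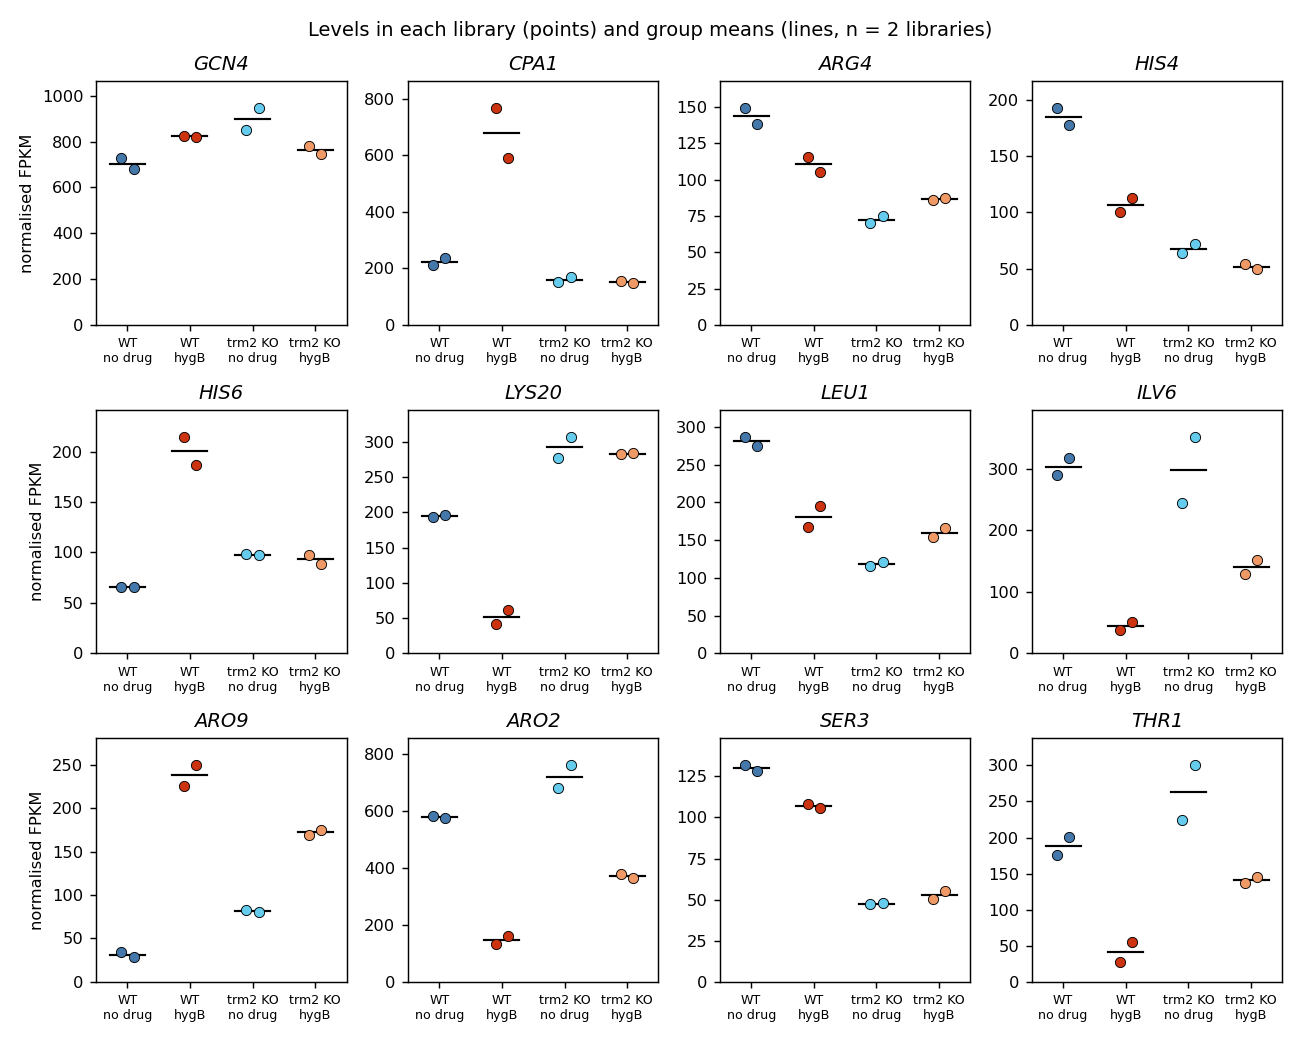
Normalised FPKM of 12 of the genes in each library (points, 2 per group) with group means (lines); each panel's axis starts at 0. CPA1 and HIS6 are high only in the 2 treated wild-type libraries, HIS4 and SER3 are lower in all 4 knockout libraries than in all 4 wild-type ones, and ARO9 has its lowest values in untreated wild type.

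Histidine is made from phosphoribosyl pyrophosphate and ATP, with a by-product that feeds purine synthesis. Without the drug 4 of the 6 genes were lower in the knockout and 1 higher, beside 19.8% and 23.2% of all tested genes, with a median of −0.43. Among the lower ones the call of HIS7 (log2 −0.17, limma adjusted p = 0.0368) was weak. It ended without each of 6 single libraries, under each other scaling and with the replicate block. HIS4, an enzyme with 3 activities in the pathway, was at 193 and 177 (untreated) and 101 and 113 (treated) in wild-type libraries, and at 63.6 and 72.0 (untreated) and 53.8 and 49.9 (treated) in knockout libraries. All 4 knockout libraries lay below all 4 wild-type libraries. HIS4 had the lowest of the 59 differences between the untreated genotypes (log2 −1.44 ± 0.09 SE, limma adjusted p = 0.000199) and differed also with the drug (log2 −1.03 ± 0.09 SE, limma adjusted p = 6.71e-05). It fell with the drug in wild type by 0.79 on the log2 scale (limma adjusted p = 0.000213), while its fall in the knockout (log2 −0.38, limma adjusted p = 0.0164) ended without library 2 of either knockout group (limma adjusted p = 0.0946 to 0.0997) and turned to 0.021 with FPKM as deposited. HIS5, the histidinol-phosphate aminotransferase, was at 175 and 169 without and 258 and 239.6 with the drug in wild type, and at 84.3 and 87.8 without and 138 and 132 with it in the knockout. It was lower in the knockout in both conditions (−0.99 untreated and −0.88 treated) and rose with the drug in both genotypes (0.53 in wild type and 0.64 in the knockout). HIS1, the ATP phosphoribosyltransferase that begins the pathway, was at 784 and 752 in wild type and 468 and 482 in the knockout without hygromycin B, and at 303 and 366 and at 405 and 381 with it. The untreated wild-type libraries were the highest and the other 3 groups lay between 303 and 482. HIS1 fell with the drug in wild type (log2 −1.20 ± 0.09 SE, limma adjusted p = 3.24e-05) and was lower in the untreated knockout by −0.69 (limma adjusted p = 0.00219).

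HIS6, the isomerase of the middle of the pathway, moved the other way. It was at 65.5 and 65.5 (untreated) and 215 and 187 (treated) in wild-type libraries, and at 98.1 and 97.5 (untreated) and 97.1 and 89.0 (treated) in knockout libraries. The treated wild-type libraries were the highest, and the knockout groups lay close together without overlapping. HIS6 rose with the drug in wild type (log2 1.60 ± 0.08 SE, limma adjusted p = 4.66e-06), was at −0.07 in the knockout and was higher in the untreated knockout (log2 0.57 ± 0.08 SE, limma adjusted p = 0.00218). HIS2, the histidinol phosphatase, and HIS7, the imidazole glycerol phosphate synthase, were between −0.22 and 0.34 in every comparison of groups. One pathway thus held genes that fell and genes that rose in the same libraries.

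Lysine is made in fungi through aminoadipate, starting with homocitrate synthase. LYS20, 1 of its 2 isozymes, was at 194 and 196 without and 42.0 and 61.7 with the drug in wild type, and at 278 and 308 without and 283 and 284 with it in the knockout. Both treated wild-type libraries lay far below the other 6, and the knockout groups overlapped. LYS20 fell with hygromycin B in wild type (log2 −1.91 ± 0.16 SE, limma adjusted p = 4.89e-05) and was at −0.04 in the knockout, so the treated genotypes differed by log2 2.45 ± 0.16 SE, limma adjusted p = 1.93e-05, the largest positive difference among the 59. The untreated difference of 0.58 ended without each of 6 single libraries (limma adjusted p = 0.0503 to 0.133), all but the treated wild-type ones. LYS21, the other isozyme, was at 116 to 155 in all 8 libraries and did not pass for the drug in either genotype. LYS1, which releases lysine in the last step, was at 55.4 and 55.2 in wild type and 46.5 and 51.5 in the knockout without hygromycin B, and at 128 and 156 and at 83.8 and 84.9 with it, and it rose in wild type (log2 1.33 ± 0.10 SE, limma adjusted p = 2.52e-05) and in the knockout (log2 0.77 ± 0.10 SE, limma adjusted p = 0.00179). LYS5, which attaches the phosphopantetheine group that the aminoadipate reductase Lys2 needs, was at 34.5 and 31.9 (untreated) and 102 and 84.5 (treated) in wild-type libraries, and at 31.5 and 35.4 (untreated) and 41.1 and 41.3 (treated) in knockout libraries. It rose in wild type (log2 1.46 ± 0.10 SE, limma adjusted p = 2.05e-05) and was at 0.30 in the knockout (limma adjusted p = 0.0563). LYS9, the other saccharopine enzyme, fell in wild type by 0.78 (limma adjusted p = 8.23e-05). Over the 8 genes 3 rose and 4 fell with the drug in wild type, beside 40.4% and 38.4% of all tested genes. Of the falls, LYS4 and LYS12, at −0.46 and −0.29, turned upward with FPKM as deposited and LYS12 also with TPM. LYS12 also did not pass without untreated wild-type library 1 (limma adjusted p = 0.0584).

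The branched-chain amino acids share enzymes in the mitochondrion, and leucine branches from the precursor of valine. ILV6, the regulatory subunit of acetolactate synthase that lends the enzyme its sensitivity to valine, was at 290.0 and 316 without and 38.5 and 51.2 with the drug in wild type, and at 245 and 352 without and 128 and 151 with it in the knockout. Treated libraries were below untreated ones in both genotypes, and those of wild type were the lowest. ILV6 had the largest fall of the 59 genes in wild type (log2 −2.74 ± 0.20 SE, limma adjusted p = 2.65e-05) and in the knockout (log2 −1.07 ± 0.20 SE, limma adjusted p = 0.00759). ILV2, the catalytic subunit, was at 241 and 256 in wild type and 251 and 267 in the knockout without hygromycin B, and at 169 and 208 and at 238 and 243 with it, and it fell in wild type by 0.41 (limma adjusted p = 0.00837) but turned to 0.21 with FPKM as deposited. The ratio of the regulatory to the catalytic subunit was thus lowest in treated wild type. ILV5, the reductoisomerase, had the highest level of the 59 genes, at 1573 and 1423 (untreated) and 737 and 843 (treated) in wild-type libraries, and at 1494 and 1643 (untreated) and 1211 and 1125 (treated) in knockout libraries. Its values were lowest in treated wild type, and ILV5 fell there by 0.92 (limma adjusted p = 0.000137). ILV1, the threonine deaminase that opens the way to isoleucine, fell by 1.02 in wild type and by 0.56 in the knockout (limma adjusted p = 0.00489), and ILV3, the dehydratase, fell by 0.73 in wild type. All 7 isoleucine and valine genes, the transaminases BAT1 and BAT2 included, fell in treated wild type, where 38.4% of all tested genes fell. Of the 7, however, ILV2 and BAT2 turned upward with FPKM as deposited and BAT2 also with TPM and quantile normalisation. The BAT2 call ended without library 1 of either wild-type group (limma adjusted p = 0.0734 to 0.0786).

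LEU1, the isopropylmalate isomerase, was at 287 and 274 without and 168 and 195 with the drug in wild type, and at 115 and 121 without and 154 and 165 with it in the knockout. The untreated knockout was the lowest group and untreated wild type the highest. LEU1 was lower in the untreated knockout (log2 −1.24 ± 0.08 SE, limma adjusted p = 0.000231), and the treated genotypes differed by −0.18 (limma adjusted p = 0.0837). With hygromycin B it fell in wild type by 0.63 and rose in the knockout (log2 0.43 ± 0.08 SE, limma adjusted p = 0.00759). The knockout call ended without treated knockout library 2 (limma adjusted p = 0.0558). LEU4, the main isopropylmalate synthase, was at 202 and 185 in wild type and 107 and 111 in the knockout without hygromycin B, and at 159 and 179 and at 145 and 144 with it, lower in the untreated knockout (log2 −0.82 ± 0.07 SE, limma adjusted p = 0.000512) and higher with the drug in the knockout (log2 0.40 ± 0.07 SE, limma adjusted p = 0.00626). BAT1, the mitochondrial transaminase, was at 625 and 576 (untreated) and 272 and 360.1 (treated) in wild-type libraries, and at 367 and 406 (untreated) and 413 and 409.9 (treated) in knockout libraries. Its untreated difference between genotypes (log2 −0.63 ± 0.13 SE, limma adjusted p = 0.0103) ended without library 1 of either untreated group (limma adjusted p = 0.0602 to 0.0615). LEU1, LEU4 and ARG4 were alone among the 59 in falling with the drug in wild type and rising in the knockout. In wild type the falls of LEU4 and ARG4 turned upward under both of the scalings that move the median of all genes, and that of LEU4 ended without 6 single libraries (limma adjusted p = 0.059 to 0.204), all but untreated wild-type library 2 and treated wild-type library 2. In the knockout the rise of ARG4 ended without untreated knockout library 1 and either treated one (limma adjusted p = 0.1 to 0.121). Their interactions were 1.06, 0.60 and 0.63 (limma adjusted p = 0.000383, 0.00243 and 0.00153), and these held without each single library. Each of these interaction calls ended with FPKM as deposited, and those of LEU4 and ARG4 also with TPM.

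Phenylalanine, tyrosine and tryptophan share the route to chorismate. ARO2, the chorismate synthase, was at 580.5 and 576 without and 131 and 162 with the drug in wild type, and at 679.5 and 761 without and 379.6 and 365 with it in the knockout. Treated libraries lay below untreated ones in both genotypes. ARO2 fell in wild type (log2 −1.98 ± 0.11 SE, limma adjusted p = 6.91e-06) and in the knockout (log2 −0.95 ± 0.11 SE, limma adjusted p = 0.0012). ARO1, which carries 5 successive activities, ARO3 and ARO4, the isozymes of the first step, and ARO7, the chorismate mutase, fell in wild type by 0.79, 0.97, 0.81 and 0.25. The fall of ARO7 turned upward with FPKM as deposited and TPM and ended without library 2 of either wild-type group (limma adjusted p = 0.0814 to 0.0945). ARO8, the main aromatic aminotransferase, was at 262 and 271 in wild type and 279.5 and 306 in the knockout without hygromycin B, and at 111 and 145 and at 233 and 235 with it, and fell in wild type (log2 −1.07 ± 0.12 SE, limma adjusted p = 0.000199).

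ARO9, the aminotransferase that works mainly in breakdown and is induced through Aro80, went against the other 6 genes. It was at 33.8 and 28.2 (untreated) and 226 and 249.8 (treated) in wild-type libraries, and at 82.8 and 80.6 (untreated) and 169.6 and 175 (treated) in knockout libraries. The 4 groups were apart, with untreated wild type the lowest and treated wild type the highest. ARO9 was higher in the untreated knockout (log2 1.37 ± 0.09 SE, limma adjusted p = 0.000249) and rose with the drug in wild type (log2 2.90 ± 0.09 SE, limma adjusted p = 1.36e-06) and in the knockout (log2 1.07 ± 0.09 SE, limma adjusted p = 0.000627). ARO10, the decarboxylase that follows it in breakdown, showed the same order for untreated cultures, at 41.4 and 37.7 in wild type and 110.2 and 109 in the knockout, and was at 244 and 254 and 256 and 276 with the drug. ARO80 itself was at 13.7 and 12.8 without and 29.7 and 25.6 with the drug in wild type, and at 18.7 and 18.8 without and 25.7 and 24.2 with it in the knockout.

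Of the 5 tryptophan genes, TRP5, the tryptophan synthase, was at 110.5 and 118 in wild type and 119 and 129 in the knockout without hygromycin B, and at 39.0 and 59 and at 88.0 and 89.8 with it. It fell in wild type (log2 −1.24 ± 0.17 SE, limma adjusted p = 0.000571). TRP1, the phosphoribosylanthranilate isomerase, rose there by 0.44 (limma adjusted p = 0.000347), from 119.6 and 119.7 to 169 and 157. TRP3, a subunit of anthranilate synthase with a second activity, fell by 0.37 and turned upward with FPKM as deposited and TPM. TRP2, the other subunit, and TRP4, which follows, did not pass for the drug in wild type. TRP2 was higher in the knockout without the drug (log2 0.33) and with it (0.21), and fell with the drug in the knockout (−0.27). Those calls of TRP2 ended with FPKM as deposited and with TPM.

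Threonine comes from aspartate through homoserine, from which methionine also branches. THR1, the homoserine kinase, was at 176 and 201 (untreated) and 27.6 and 55.8 (treated) in wild-type libraries, and at 225 and 300.5 (untreated) and 137 and 145 (treated) in knockout libraries. Those of treated wild type differed from each other and lay below all others. THR1 fell in wild type (log2 −2.23 ± 0.31 SE, limma adjusted p = 0.000534), was at −0.88 in the knockout without passing (limma adjusted p = 0.0591), and differed between treated genotypes by log2 1.81 ± 0.31 SE, limma adjusted p = 0.0016. HOM2, the aspartate semialdehyde dehydrogenase, was at 445 and 423 without and 158 and 169.5 with the drug in wild type, and at 373 and 399 without and 292 and 265 with it in the knockout, and fell by 1.40 in wild type and by 0.47 in the knockout (limma adjusted p = 0.00323). HOM6, the homoserine dehydrogenase, was at 370.0 and 380.1 in wild type and 413 and 420.1 in the knockout without hygromycin B, and at 188 and 186 and at 386 and 372 with it. It fell in wild type (log2 −1.0 ± 0.04 SE, limma adjusted p = 3.71e-06) and was at −0.14 in the knockout, so that the treated genotypes differed by 1.01 (limma adjusted p = 4.38e-06). THR4, the threonine synthase, was at 344 and 326 (untreated) and 145 and 186 (treated) in wild-type libraries, and at 421 and 440.2 (untreated) and 324 and 320.5 (treated) in knockout libraries and fell by 1.02 in wild type (limma adjusted p = 0.000165). HOM3, the aspartate kinase of the first step, changed least, with a fall of 0.41 in wild type. All 5 genes fell in treated wild type, beside 38.4% of all tested genes, but HOM3 turned to 0.20 with FPKM as deposited.

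Serine is made from 3-phosphoglycerate. SER3, an isozyme of the phosphoglycerate dehydrogenase that begins the pathway, was at 132 and 128 without and 108 and 106 with the drug in wild type, and at 47.1 and 48.0 without and 50.2 and 55.4 with it in the knockout. All 4 knockout libraries lay below all 4 wild-type ones. SER3 was lower in the knockout without the drug (log2 −1.43 ± 0.06 SE, limma adjusted p = 5.68e-05) and with it (log2 −1.01 ± 0.06 SE, limma adjusted p = 1.05e-05), calls that no scaling and no single library ended. SER33, the other isozyme, was at 124 and 123 in wild type and 88.3 and 92.0 in the knockout without hygromycin B, and at 87.9 and 88.0 and at 86.4 and 88.9 with it. It was lower in the untreated knockout (log2 −0.45 ± 0.04 SE, limma adjusted p = 0.000741), and the treated genotypes were at −0.00 and overlapped. SER3 is repressed by transcription of SRG1, a noncoding RNA that runs across its promoter and overlaps SER3 by 77 bases on the same strand in RefSeq R64. SRG1, named after its values were seen, was at 198 and 201 without and 334 and 298 with the drug in wild type, and at 156 and 129 without and 174 and 187 with it in the knockout. SRG1 was thus also lower in the knockout (log2 −0.49 ± 0.10 SE untreated, limma adjusted p = 0.0105, and −0.80 treated). The untreated call of SRG1 ended with FPKM as deposited and without untreated wild-type library 2 (limma adjusted p = 0.656 and 0.0532). How reads of the overlap were assigned is not given in the sources used here. SER1, the phosphoserine aminotransferase, and SER2, the phosphatase, fell in treated wild type by 0.63 and 0.72. All 4 serine genes fell there, beside 38.4% of all tested genes. Of the 4, however, SER3 (−0.28) and SER33 (−0.49) turned upward with FPKM as deposited and SER3 also with TPM.

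Proline is made from glutamate in 3 steps. PRO3, the reductase of the last step, which also completes the conversion of arginine to proline, was at 315 and 308 (untreated) and 85.5 and 107 (treated) in wild-type libraries, and at 318 and 360.3 (untreated) and 259.6 and 255 (treated) in knockout libraries. The treated wild-type libraries lay far below the others. PRO3 fell in wild type (log2 −1.70 ± 0.11 SE, limma adjusted p = 1.49e-05) and differed between treated genotypes by log2 1.42 ± 0.11 SE, limma adjusted p = 3.73e-05. PRO2, the second enzyme, was at 161 and 159 without and 83.9 and 99.7 with the drug in wild type, and at 204 and 205 without and 171 and 169 with it in the knockout, and fell in wild type by 0.80 (limma adjusted p = 0.000102). PRO1, the glutamate kinase, was at 106 and 114 in wild type and 142 and 138 in the knockout without hygromycin B, and at 133 and 133 and at 119.9 and 115 with it and rose in wild type by 0.27. In the knockout it was lower with the drug by −0.25 (limma adjusted p = 0.0103), which ended without untreated knockout library 1 and treated knockout library 2 (limma adjusted p = 0.0569 to 0.0716) and turned upward with FPKM as deposited and TPM.

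Asparagine is made by a pair of synthetases. ASN1 was at 595 and 559 (untreated) and 639 and 739 (treated) in wild-type libraries, and at 565 and 593 (untreated) and 529 and 498 (treated) in knockout libraries, and ASN2 at 523 and 527 without and 221 and 249 with the drug in wild type, and at 584 and 615 without and 435 and 436 with it in the knockout. ASN2 fell with the drug in wild type (log2 −1.16 ± 0.07 SE, limma adjusted p = 8.85e-06) and in the knockout (log2 −0.46 ± 0.07 SE, limma adjusted p = 0.00278). ASN1 was at 0.25 in wild type, a call that ended without 5 single libraries (limma adjusted p = 0.0508 to 0.132), namely both untreated wild-type ones, treated wild-type library 2 and both untreated knockout ones.

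In 7 steps a pair of isozymes serves. Shifts of the mean log2 ratio were set against the widest gap between the libraries of any group of that pair. With the drug in wild type the shift exceeded that gap in 6 pairs, all but ARO3 and ARO4. With the drug in the knockout it did so in all but that pair and LYS20 and LYS21. Between genotypes, untreated or treated, it did so in all 7. How often other pairs of genes would do so was not counted. The log2 ratio of LYS20 to LYS21 was 0.62 and 0.71, then −1.46 and −1.09 with the drug, in wild type, and 1.03 and 1.12, then 0.91 and 0.88 with the drug, in the knockout. LYS20 was thus the higher of the pair in 6 libraries and the lower in the treated wild type. For ARO8 over ARO9 it was 2.95 and 3.26, then −1.03 and −0.79 in wild type, and 1.76 and 1.93, then 0.46 and 0.42 in the knockout, so only treated wild type had more ARO9 than ARO8. For LEU4 over LEU9 it was 0.45 and 0.35, then 2.04 and 1.98 in wild type, and −0.32 and −0.26, then 0.72 and 0.68 in the knockout. LEU9 itself, the minor isozyme in wild type, was at 148 and 145 in wild type and 134 and 133 in the knockout without hygromycin B, and at 38.7 and 45.4 and at 88.2 and 89.7 with it, and fell in wild type (log2 −1.78 ± 0.07 SE, limma adjusted p = 2.91e-06) and in the knockout (log2 −0.58 ± 0.07 SE, limma adjusted p = 0.00192). The ratio of ASN1 to ASN2 in wild type went from 0.19 and 0.09 to 1.53 and 1.57 with the drug, and that in the knockout from −0.05 in both libraries to 0.28 and 0.19.

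SER3 over SER33 and ARO3 over ARO4 differed more between the genotypes than between the treatments. The log2 ratio of SER3 to SER33 was 0.08 and 0.06, then 0.30 and 0.27 with the drug, in wild type, and −0.91 and −0.94, then −0.78 and −0.68, in the knockout. All 4 knockout libraries lay below the 4 wild-type ones, and within each genotype the treated libraries lay above the untreated ones. The ratio of ARO3 to ARO4 was −0.15 to 0.14 in wild type and −0.63 to −0.50 in the knockout, where ARO3 was lower without the drug (log2 −0.64 ± 0.08 SE, limma adjusted p = 0.00159). BAT1 over BAT2, the mitochondrial over the cytosolic transaminase, was 0.36 and 0.30 without and −0.46 and −0.19 with the drug in wild type, and −0.32 and −0.37 without and 0.03 and 0.06 with it in the knockout. The ratios are given as a description, with no test. Coding sequences of a pair were identical at 92.2% of aligned bases for LYS20 and LYS21 and at 63.7% to 83.1% for the other 6 pairs in RefSeq R64, and reads that RSEM divides between such copies make the LYS20 and LYS21 values the least certain of these.

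**Figure D3:**
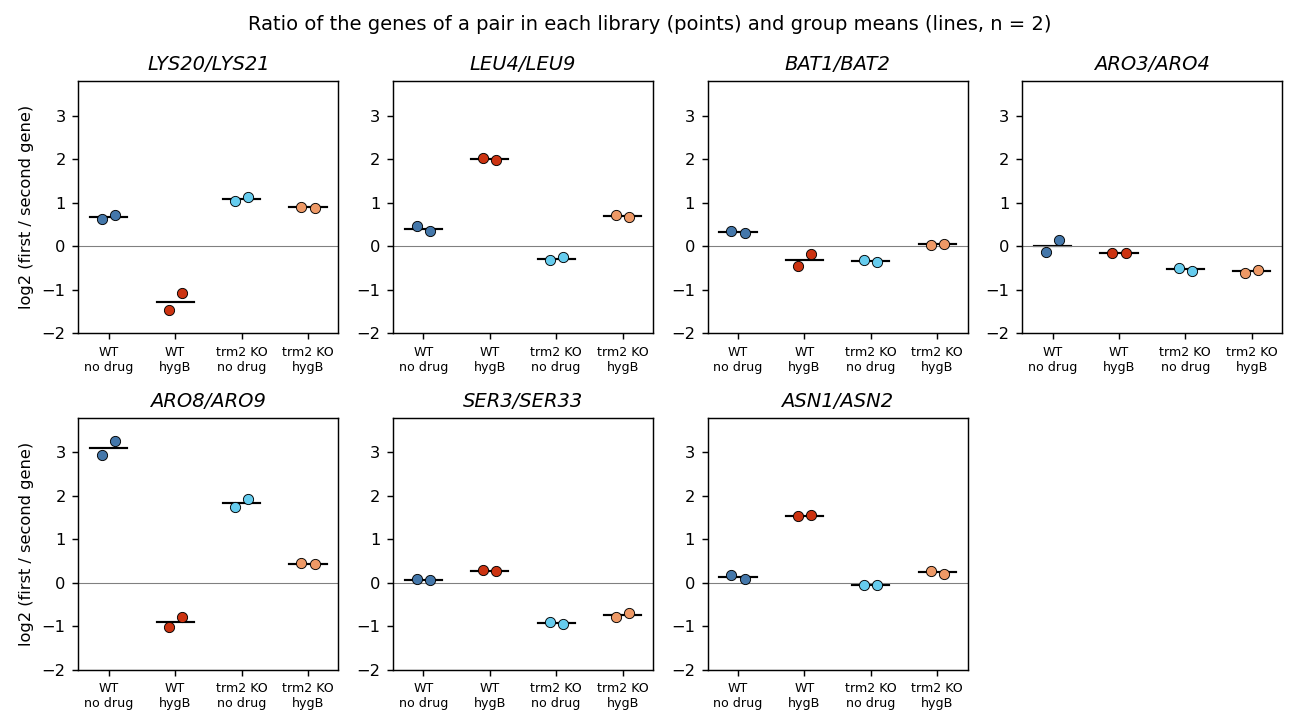
Log2 ratio of normalised FPKM of the 2 isozyme genes of each of 7 pairs in each library (points) with group means (lines); 0 means equal levels. LYS20/LYS21 and ARO8/ARO9 drop below 0 in treated wild type alone, and SER3/SER33 is below 0 in all 4 knockout libraries.

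Set side by side, the drug responses of the 2 genotypes were of unequal size. The absolute log2 change was larger in wild type for 51 of the 59 genes, beside 80.6% of all tested genes, and its median was 0.73 in wild type and 0.26 in the knockout, beside 0.65 and 0.24 over all tested genes. ARG3, HIS5, LYS1 and ARO9 rose in both genotypes and 18 genes fell in both. Over all tested genes 40.4% rose and 38.4% fell in wild type, and 20.9% and 22.3% in the knockout. The share of all tested genes called alike in both genotypes was not counted, so the 18 is not read as a trait of these genes. Of the 21 falls in the knockout, 12 turned upward with FPKM as deposited, 7 of them also with TPM. GCN4 and PRO1 rose in wild type and fell in the knockout, the falls being among those 12, and 3 genes, ARG1, LYS21 and TRP4, passed in neither. Across the 59 genes the changes had a Pearson correlation of 0.746, given as a description over genes that share libraries. The difference of the responses passed for 46 genes, 32 higher and 14 lower in the knockout, beside 30.6% and 33.9% of all tested genes, with a median of 0.40 beside −0.03. The difference was at least 2-fold for 8 and 5 of them, beside 9.5% and 10.7%.

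**Figure D4:**
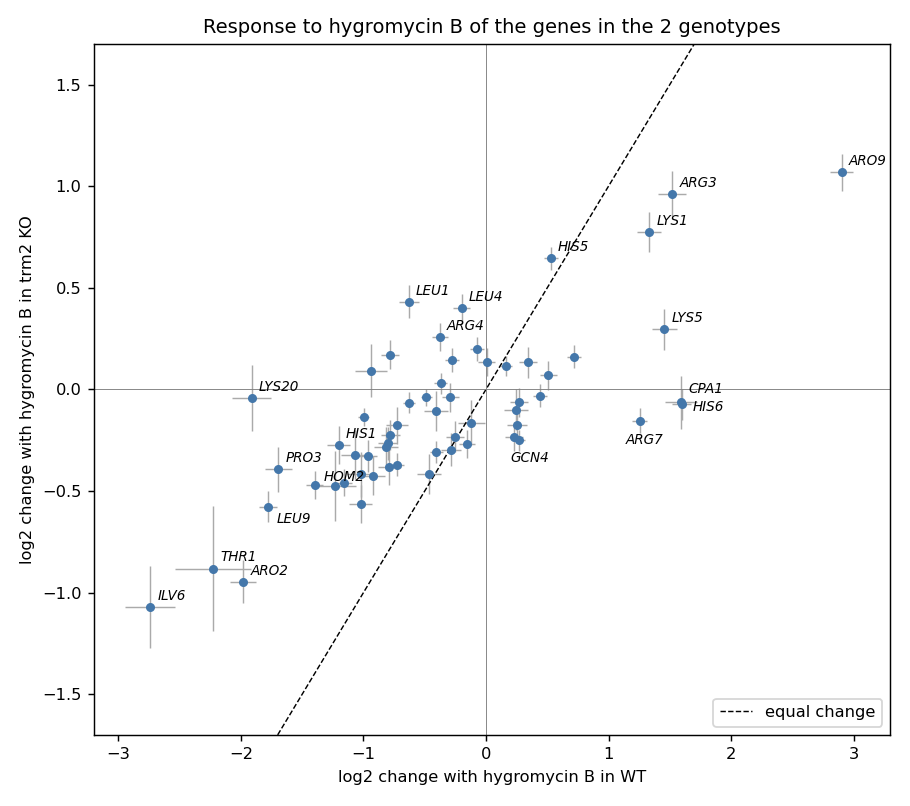
Log2 change with hygromycin B in wild type (horizontal axis) and in the trm2 knockout (vertical axis, another scale) of each of the 59 genes (points), with SE from limma as bars; the dashed line marks equal changes. Most points lie nearer to 0 on the vertical axis: LYS20, CPA1, HIS6 and ARG7 changed in wild type and lie close to 0 in the knockout, while ARG3, LYS1 and HIS5 rose in both.

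The genes with the Gcn4 core motif were set beside those without it. Between untreated genotypes 14 of the 40 genes with the core were lower in the knockout and 9 higher, with a median of −0.07, against 2 lower and 5 higher of the 19 without it, with a median of 0.11. Among all tested genes with a promoter window, 29.0% of 606 with the core and 19.9% of 5207 without it were lower. With the drug in wild type 62.5% of the genes with the core and 63.2% of those without it fell, against 38.6% and 39.4% of all tested genes with and without it. The difference between genes with and without the core was not tested.

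**Figure D5:**
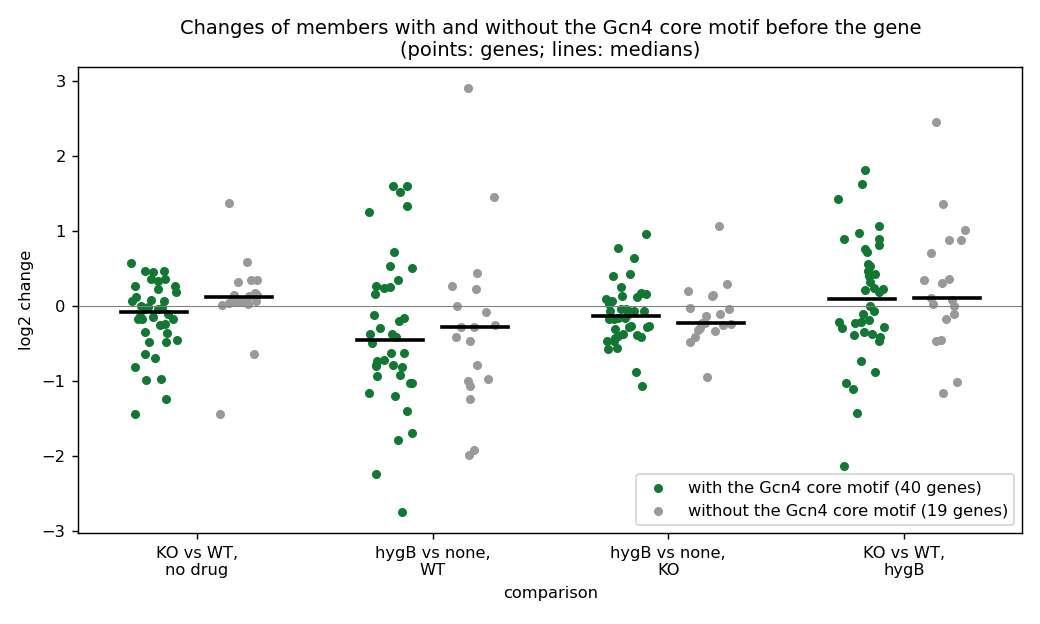
Log2 changes of the 40 genes with and the 19 genes without the Gcn4 core motif in the 400 bases before the start codon (points: genes; lines: medians) in 4 comparisons. In the first, the median is −0.07 with the motif and 0.11 without it.

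The steps that surround these pathways were described from lists of other genes. Over all tested genes 40.4% rose and 38.4% fell with the drug in wild type, and 20.9% and 22.3% in the knockout. With FPKM as deposited these shares were 33.9% and 5.68% in wild type, and 1.27% and 0.357% in the knockout. With TPM they were 47.0% and 18.3% in wild type, and 21.3% and 2.22% in the knockout. Of 15 genes of the amino acid control around GCN4, 8 fell and none rose with the drug in wild type, with a median of −0.42. In the knockout 1 rose and 5 fell. The list holds Gcn2, its activators and subunits of eIF2 and its exchange factor, and also YIH1, GCD10, GCD14 and PCL5. YIH1 and PCL5 were among those that fell in both genotypes, so the counts are not those of Gcn2 and its activators alone. SUI2, the eIF2 subunit that Gcn2 phosphorylates, was at 489.8 and 526 (untreated) and 184 and 221 (treated) in wild-type libraries, and at 524 and 506 (untreated) and 417 and 421 (treated) in knockout libraries (log2 −1.32 ± 0.09 SE, limma adjusted p = 1.81e-05 in wild type). GCN2 was at 23.8 to 26.9 in all 8 libraries. PCL5, a cyclin that directs Gcn4 breakdown and is itself induced by Gcn4, was at 208 and 199 without and 83.2 and 91.6 with the drug in wild type, and at 158 and 173 without and 139 and 132 with it in the knockout, and fell in wild type (log2 −1.21 ± 0.07 SE, limma adjusted p = 9.75e-06). With FPKM as deposited none of the 15 passed in either genotype and their median was 0.19 in wild type and 0.28 in the knockout, and with TPM 3 rose and 2 fell in wild type and none passed in the knockout. The calls of SUI2 and PCL5 in wild type ended with FPKM as deposited and held with TPM. Of 11 pathway-specific regulators 9 rose and 1 fell in treated wild type, with a median of 0.69, and 5 rose and 2 fell in the treated knockout. The fall in wild type was that of MCM1 (log2 −0.22), which turned upward under each other scaling. LYS14 was at 36.9 and 38.1 in wild type and 46.7 and 42.6 in the knockout without hygromycin B, and at 111 and 105 and at 54.4 and 57.4 with it and rose in both genotypes (1.50 and 0.32), while its target pathway held genes that rose and genes that fell. The LYS14 call in the knockout ended with FPKM as deposited and without treated knockout library 2 (limma adjusted p = 0.0628). The regulators that rose were 9 of 11 in wild type with FPKM as deposited, and none passed in the knockout. ARG80, a partner of Mcm1 in the control of arginine genes, rose in wild type by 1.26, from 57.4 and 65.7 to 144 and 154. LEU3 mRNA rose there by 0.69. LEU1, ILV5 and BAT1, the genes with the Leu3-type motif, fell by 0.63, 0.92 and 0.94, calls that ended with FPKM as deposited. Whether Leu3 had a part in these falls was not tested.

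Glutamate and glutamine supply the nitrogen of most of these pathways. Of 4 genes for their synthesis 3 rose and 1 fell in treated wild type, and 3 fell in the treated knockout. Over all tested genes 40.4% rose and 38.4% fell in treated wild type, and 22.3% fell in the treated knockout. With FPKM as deposited 33.9% of all rose and 5.68% fell in treated wild type. GDH1, the main glutamate dehydrogenase of synthesis, was at 326 and 306 (untreated) and 934 and 1069 (treated) in wild-type libraries, and at 311 and 372 (untreated) and 294 and 274 (treated) in knockout libraries. GLN1, the glutamine synthetase, was at 1385 and 1298 without and 1676 and 1740 with the drug in wild type, and at 879.9 and 952 without and 432 and 400 with it in the knockout. The treated wild-type libraries were the highest and the treated knockout libraries the lowest for GLN1, and it fell in the knockout (log2 −1.14 ± 0.07 SE, limma adjusted p = 0.000253). GLN1 no longer passed there with FPKM as deposited, by which 2 of the 4 genes rose and none fell in wild type and none passed in the knockout. Of 6 tested genes for further biosynthesis steps 4 rose and 1 fell in treated wild type. The remaining gene was HIS3, which did not pass there and which this strain lacks in part. PHA2, the prephenate dehydratase for phenylalanine, rose there (log2 1.77 ± 0.05 SE, limma adjusted p = 1.04e-06), from 37.9 and 37.9 to 132 and 132, where ARO2 in the shared route before it fell. AAT2, the cytosolic aspartate aminotransferase, fell by 0.94, from 326 and 303 to 155 and 171, a call that ended with FPKM as deposited.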

How the data were processed

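The authors deposited FPKM per feature for 8 poly(A) RNA libraries, made, per the submitters' processing notes, with RSEM 1.3.3 and STAR 2.7.8a after cutadapt 2.3, FastQC 0.11.8 being named too. Build, annotation and strand setting are not given in the sources used here. Low values showed no step worth 1 read, so depth stays unknown and no count test was run. FPKM were divided by median-ratio factors (0.611 to 1.44). The fit used limma 3.58.1 (R 4.3.3) on log2(normalised FPKM + 1) for 6439 genes, those whose mean FPKM reached 1 (1 mean per group, eBayes with trend, 4 residual degrees of freedom, 6.39 after moderation), two-sided, with Benjamini-Hochberg adjustment over all tested genes and a threshold of 0.05. The fit was tested on simulated data.

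Genes and lists were chosen with earlier results of these data known. Text names GCN4, genes past the threshold with a log2 change of at least 1, isozyme pairs, genes that complete a pathway, and up to 3 genes per list and comparison. Promoter windows came from RefSeq R64 with its own annotation. The alternatives were 3 scalings, a pseudocount of 0.1, other filters, no trend, a replicate block, only the compared groups and each library left out. ECM40, on the list of further steps, is another name of ARG7 and was not counted again. 1 gene of the further biosynthesis steps is not reported here. Series text calls libraries biological duplicates.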

Additional observations from a re-analysis of the deposited data

Results flagged for a closer look

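The drug response differed between the genotypes for 46 of the 59 genes by limma's test of the genotype by hygromycin B interaction. Each value below is the log2 change with hygromycin B in the knockout minus that in wild type, and adjusted p was under 0.05 for each. Among all tested genes 30.6% had such a positive and 33.9% such a negative difference.

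GCN4 was among them (−0.46). In the arginine pathway they were ARG2 at −0.44, ARG3 at −0.56, ARG4 at 0.63, ARG7 at −1.41, ARG8 at −0.55 and CPA1 at −1.65. In the histidine pathway they were HIS1 at 0.93, HIS2 at 0.27, HIS4 at 0.41 and HIS6 at −1.67, and in the lysine pathway LYS1 at −0.56, LYS2 at −0.33, LYS5 at −1.16, LYS9 at 0.55 and LYS20 at 1.87. The leucine genes were LEU1 at 1.06, LEU4 at 0.60 and LEU9 at 1.20, and the isoleucine and valine genes ILV1 at 0.46, ILV3 at 0.55, ILV5 at 0.50, ILV6 at 1.67 and BAT1 at 1.03. In the shared aromatic route they were ARO1 at 0.96, ARO2 at 1.04, ARO3 at 0.64, ARO4 at 0.53, ARO8 at 0.74 and ARO9 at −1.83, and for tryptophan TRP1 at −0.47, TRP3 at 0.40 and TRP5 at 0.76. The threonine genes were HOM2 at 0.93, HOM6 at 0.86, THR1 at 1.35 and THR4 at 0.60, and the serine genes SER1 at 0.56, SER2 at 0.35, SER3 at 0.42 and SER33 at 0.45. For proline they were PRO1 at −0.52, PRO2 at 0.54 and PRO3 at 1.3, and for asparagine ASN1 at −0.42 and ASN2 at 0.70.

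The calls of ARO9, CPA1 and HIS6 also held with FPKM as deposited, and the other 43 did not. Of the 46, 36 passed without each single library, 25 of them positive and 11 negative. THR1, the sole exception among those of at least 2-fold, did not pass without each of 5 libraries (limma adjusted p = 0.0598 to 0.0986), which were both untreated wild-type ones, untreated knockout library 1 and both treated knockout ones.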

How the results depend on the processing

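The counts of called genes among the 59 held within 1.5 times with a pseudocount of 0.1, with no low-value filter, with a mean of at least 10 FPKM (which removed ARG3), with eBayes without a trend and with the replicate block. Many of them did not hold with FPKM as deposited or with TPM. With quantile normalisation the calls were 26 between untreated genotypes and 52 for the drug in wild type, within 1.5 times. Between untreated genotypes the 30 calls became 3 with FPKM as deposited (0 higher and 3 lower) and 13 with TPM (1 higher). For hygromycin B in wild type the 54 calls became 17 (11 higher, 6 lower) and 34 (16 lower). For hygromycin B in the knockout the 29 became 1 (1 higher, 0 lower) and 10 (2 lower), the falls were 12 with quantile normalisation, and the rises were 13 in a fit of only the compared groups. Between treated genotypes the 47 became 11 (3 higher, 8 lower) with FPKM as deposited, and 13 were higher with TPM. The interaction's 46 became 3 (0 higher, 3 lower) and 17 (12 higher, 5 lower). The share of calls over all tested genes that were higher moved as well, in the order of these comparisons from 54.0% to 14.1% (FPKM as deposited) and 11.4% (TPM), from 51.3% to 85.6% and 72.0%, from 48.3% to 78.1% and 90.5%, from 48.3% to 16.6% and 28.7%, and from 47.5% to 30.1% and 38.9%. Without 1 library each, calls between untreated genotypes ranged from 17 to 37 (4 to 17 higher, 11 to 20 lower), for the drug in wild type from 48 to 53, for the drug in the knockout from 14 to 38 (5 to 12 higher, 9 to 26 lower), between treated genotypes from 39 to 48 and for the interaction from 38 to 49.

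Small log2 differences changed sign with the scaling in 57 cases over genes and settings. With FPKM as deposited they were, between untreated genotypes, ARG2 −0.057, ARG8 −0.0296, LYS2 −0.028 and HOM6 −0.15. For the drug in wild type they were ARG4 0.23, LYS4 0.14, LYS12 0.32, LEU4 0.41, ILV2 0.21, BAT2 0.33, ARO7 0.36, TRP3 0.24, HOM3 0.20, SER3 0.33 and SER33 0.12. For the drug in the knockout they were GCN4 0.17, HIS4 0.021, LYS9 0.18, BAT2 0.11, ARO3 0.079, ARO7 0.17, TRP2 0.14, HOM3 0.097, SER2 0.034, PRO1 0.15, PRO2 0.14 and PRO3 0.013. Between treated genotypes they were HIS2 −0.16, LYS21 −0.20, ILV2 −0.15, BAT1 −0.11, ARO4 −0.0801, TRP2 −0.29, TRP3 −0.037, SER1 −0.29 and SER2 −0.18. With TPM HOM6 −0.079 changed sign between untreated genotypes, ARG4 0.018, LYS12 0.11, LEU4 0.20, BAT2 0.11, ARO7 0.14, TRP3 0.023 and SER3 0.12 for the drug in wild type, GCN4 0.069, LYS9 0.074, BAT2 0.0064, ARO7 0.069, TRP2 0.031, PRO1 0.051 and PRO2 0.035 for the drug in the knockout, and LYS21 −0.017, TRP2 −0.11, SER1 −0.10 and SER2 −0.0025 between treated genotypes. With quantile normalisation BAT2 0.0054 changed sign for the drug in wild type and GCN4 0.022 in the knockout. No interaction of a called gene changed sign under any setting run.

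With the replicate block 13 genes were higher and 14 lower between untreated genotypes, 17 and 36 changed with the drug in wild type, 8 and 21 with the drug in the knockout, 27 and 21 between treated genotypes, and 32 and 14 for the interaction. Deviations of libraries with the same number correlated at −0.232 to 0.256 over genes, so the numbers were not taken as pairs. Groups of 2 libraries, and a table without counts, limit what these fits can separate: a small difference that missed the threshold is not shown to be 0.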

Other observations

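Uptake and breakdown of amino acids run beside synthesis, and their genes were described from lists as well. Of 13 amino acid permease genes 4 rose and 7 fell with hygromycin B in wild type, and 2 rose and 1 fell in the knockout. The shares of all tested genes were 40.4% and 38.4% in wild type, and 20.9% and 22.3% in the knockout. With FPKM as deposited 3 of the 13 rose and 1 fell in wild type, beside 33.9% and 5.68% of all tested genes. The median of the 13 turned there from −0.22 to 0.28, and none passed in the knockout. GAP1, the general permease, was at 19.6 and 18.6 in wild type and 15.9 and 14.9 in the knockout without hygromycin B, and at 328 and 406 and at 17.8 and 16.6 with it. The treated wild-type libraries alone were high (log2 4.19 ± 0.10 SE, limma adjusted p = 8.62e-07 in wild type). TAT1, a permease of valine, leucine and tyrosine, was at 211 and 214 (untreated) and 51.5 and 67.0 (treated) in wild-type libraries, and at 250.3 and 259 (untreated) and 208 and 195 (treated) in knockout libraries, and fell in wild type (log2 −1.84 ± 0.12 SE, limma adjusted p = 1.33e-05). DIP5, which carries aspartate and glutamate, was at 102 and 95 without and 353 and 319.6 with the drug in wild type, and at 98.6 and 107 without and 106 and 109 with it in the knockout. AGP1, a permease of broad range, was at 116 and 118 in wild type and 41.5 and 44.1 in the knockout without hygromycin B, and at 77.9 and 96.2 and at 36.6 and 36.1 with it. Its knockout libraries lay below all wild-type ones (log2 −1.44 ± 0.10 SE, limma adjusted p = 0.000249 untreated).

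Of 10 genes of amino acid breakdown 7 rose and 2 fell with the drug in wild type, with a median of 1.26. In the knockout 4 rose and 2 fell, with a median of 0.14. The shares of all tested genes were 40.4% and 38.4% in wild type, and 20.9% and 22.3% in the knockout. PDC5, a pyruvate decarboxylase that also acts on the keto acids of aromatic amino acids, was at 11.6 and 12.3 (untreated) and 381 and 314 (treated) in wild-type libraries, and at 9.44 and 11.2 (untreated) and 9.6 and 9.58 (treated) in knockout libraries. Only the treated wild-type libraries were high (log2 4.75 ± 0.11 SE, limma adjusted p = 8.12e-07 in wild type). PUT1 had the largest rise of the 10 in wild type, from 6.26 and 5.57 to 1360 and 1255 with the drug. In the knockout PUT1 went from 7.77 and 6.38 to 24.6 and 30.6. CHA1, the serine and threonine deaminase, was at 518 and 514 without and 238 and 257 with the drug in wild type, and at 889.7 and 894 without and 866 and 864 with it in the knockout. It fell in treated wild type (log2 −1.06 ± 0.05 SE, limma adjusted p = 5.82e-06) and was higher in the untreated knockout (log2 0.79 ± 0.05 SE, limma adjusted p = 0.000249). Both calls ended with FPKM as deposited, and the untreated one also with TPM. With FPKM as deposited 6 of the 10 breakdown genes rose and none fell in wild type, beside 33.9% and 5.68% of all tested genes. In the knockout 2 rose and none fell by that scaling, beside 1.27% and 0.357%. CHA4, the activator gene of CHA1, rose in treated wild type by 1.3, from 19.1 and 18.3 to 48.9 and 45.7.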
